A study of Mus musculus with 24 samples.

Results

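The receptor dependence of the acute uterine response to progesterone (P4) was measured as a difference of effects: the change after P4 in wild-type (WT) uteri minus the change after P4 in uteri of mice lacking the progesterone receptor (PRKO). It used the 12 of 24 arrays that were hybridized with RNA taken 4 h after a first injection, 3 arrays in each of 4 groups, and all 12422 probe sets that are not controls. The 4 groups were WT with vehicle, WT with P4, PRKO with vehicle and PRKO with P4. All mice, controls included, had been ovariectomized at 6 weeks of age, which removes the main source of ovarian steroids, and were injected 2 weeks later with sesame oil alone or with 1 mg of P4 in 100 µl of sesame oil. The knockout was of the whole animal, the labels do not describe its allele, and each RNA pool came from 5 mice. Whether a group holds 3 pools or repeated hybridizations of 1 pool cannot be read from the labels, so the errors and p-values below measure the spread between arrays, which may be technical.

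The progesterone receptor is a nuclear receptor that binds DNA at hormone response elements once P4 has bound it and then raises or lowers transcription of nearby genes. In the uterus it acts in epithelium, stroma and muscle, restrains the proliferative action of estrogen on the epithelium and prepares the tissue for implantation. A gene whose early response needs the receptor should change in WT and not in PRKO uteri, which is the question the difference of effects addresses.

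Pgr, the gene that encodes the receptor, was dim, at the 21.6th percentile of mean signal on these arrays. Its scaled signal was 140.3, 149.4 and 145.2 on the WT vehicle arrays and 121.5, 130.5 and 126.7 on the PRKO vehicle arrays. After P4 it read 103.0, 139.6 and 120.1 in WT and 114.2, 119.9 and 112.7 in PRKO. The Pgr probe set was thus only slightly lower in the knockout (log2 -0.16 in vehicle uteri, not past the threshold). No source used here places its probes inside or outside the deleted part, and this reading therefore does not check the genotype labels.

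No measured marker of epithelium (16 genes), endometrial stroma (16) or smooth muscle (11) was at 0 on any array. Markers of fat (12 genes), skeletal muscle (14), leukocytes (16) and blood (4) were also above 0 on every array. Only 19 values were exactly 0 over the 12 arrays, so signal above 0 does not check the uterine tissue label. The deposited median signal ranged from 323.5 to 343.3 over the 12 arrays, and their number limits the precision. The 3'/5' signal ratio of the Gapdh control, a sign of RNA degradation, was 3.67 on WT vehicle replicate 2 and 3.25 on WT P4 replicate 2, against 1.25 to 1.86 on the other 10 arrays. The same ratio of the beta-actin control did not set these arrays apart. It was 1.42 and 1.3 on them, against 1.16 to 1.96 on the other 10. Below, an effect is log2 of P4 over vehicle, a positive difference means a higher effect in WT than in PRKO, errors are standard errors from limma with 3 arrays per group, and "rose" or "fell" is used where the Benjamini-Hochberg adjusted p over all probe sets was under 0.05.

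Cyp26a1 encodes the cytochrome P450 that oxidizes and so inactivates retinoic acid. It rose after P4 in WT uteri and was the single gene whose difference between the genotypes passed the threshold. Its scaled signal was 98.1, 103.1 and 89.6 on the WT vehicle arrays and 1214, 1172 and 726.4 on the WT P4 arrays. In PRKO uteri it read 162.1, 117.1 and 109.3 with vehicle and 111.4, 106.2 and 109.3 after P4. All 3 WT P4 arrays lay far above the other 9 arrays, and the lowest of them, replicate 3, still lay above every PRKO array. The P4 effect on Cyp26a1 was 3.02 ± 0.17 in WT (8.10-fold) and -0.18 ± 0.17 in PRKO (95% interval -0.55 to 0.18). The difference was 3.20 ± 0.24 (9.19-fold, 95% interval 2.68 to 3.72, limma adjusted p = 9.43e-05).

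Because Cyp26a1 carries the result, the window around its annotated start is shown: 250 bases before and 50 bases after it, from RefSeq on GRCm38.p6, chr19:37697558-37697857, plus strand, written 5′ to 3′ in lower case with no part marked. It comes from the reference, and these arrays did not measure it.
Cyp26a1: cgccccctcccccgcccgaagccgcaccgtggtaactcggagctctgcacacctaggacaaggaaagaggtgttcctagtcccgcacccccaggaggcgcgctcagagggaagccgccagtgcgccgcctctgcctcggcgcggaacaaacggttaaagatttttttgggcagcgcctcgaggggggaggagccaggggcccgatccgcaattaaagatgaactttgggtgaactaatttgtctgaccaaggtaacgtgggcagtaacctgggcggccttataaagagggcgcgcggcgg
Of the 33 genes chosen by the rule for named genes, 27 have such a window in the reference table.

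Over all probe sets, 1 of 12422 passed for a higher effect in WT (0.00805%) and 0 passed for a lower effect (limma). At an unadjusted p under 0.05 there were 284, of which 223 were higher and 61 lower, against 621.1 that uniform p-values would give. The difference combines the errors of 4 groups, and its median standard error over probe sets was 0.16, compared with 0.11 for the effect within a genotype. When the 40 h arrays were added to the fit, 12 probe sets passed, 11 higher and 1 lower. They were those of Cyp26a1, Cited2, Pip5k1b, Sult1d1, Caprin2, Atp6v1b2, Pdk3, Bmp2k, Tiparp and Ggct, and a pair for Adh5. The spread within groups was smaller at 40 h, so that fit gives the 4 h comparison smaller errors. Leaving out single arrays gave 1 to 8, with 5 without WT vehicle replicate 3, 8 without WT P4 replicate 3, 3 without PRKO vehicle replicate 3 and 2 without PRKO P4 replicate 1. Cyp26a1 passed under all 23 alternative settings, with a difference between 2.46 and 3.60 and an adjusted p between 3.38e-08 and 0.00375.

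The genotypes were then compared through the genes that responded in WT. In WT uteri 21 probe sets rose (0.169% of those tested) and 7 fell (0.0564%), while in PRKO uteri 0 passed in either direction (limma). At an unadjusted p under 0.05 there were 525 in WT and 119 in PRKO, against 621.1 that uniform p-values would give. The PRKO test thus gave few small p-values, and 0 calls do not show that nothing changed there. The WT and PRKO effects share no arrays, so the PRKO effects of the 28 probe sets that passed in WT did not enter their choice. The 21 that rose had a median effect of 0.85 in WT and -0.02 in PRKO, where they ranged from -0.18 to 0.24, 8 above 0 and 13 below, and none reached an unadjusted p under 0.05. Over all probe sets 48.0% of PRKO effects were above 0. The 7 that fell had a median of -0.97 in WT and -0.21 in PRKO, where 5 lay below 0 and 2 above, and 2 had an unadjusted p under 0.05. Those 2 were Tspan8, also lower after P4 in PRKO, and Sult1d1, which went the other way. The median PRKO effect of the probe sets that fell was between -0.29 and -0.05 over the alternatives that called any.

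The count of WT responses depended on the arrays used and on the design. With the 40 h arrays in the fit 88 passed (65 higher and 23 lower), 27 of the 28 among them. With the replicate number as a block 42 passed, with 27 shared, 15 gained and 1, Il13ra2, lost. Leaving out a WT array changed the count from 28 to 7 (vehicle replicate 1), 6 (vehicle replicate 2), 4 (P4 replicate 1) or 6 (P4 replicate 2). It was 28 without vehicle replicate 3, of which 19 were shared with all arrays, and 40 without P4 replicate 3, of which 20 were shared. Leaving out a PRKO array, which acts here only through the shared estimate of spread, gave 11 (vehicle replicate 2), 17 (vehicle replicate 3) or 12 (P4 replicate 3). Without both arrays of high Gapdh 3'/5' ratio, which leaves 2 arrays in each WT group, Cyp26a1 was the single probe set that passed. With that ratio as a covariate the count was 42, and all 28 were among them. The part of RNA quality in these counts was not tested further.

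**Figure D1:**
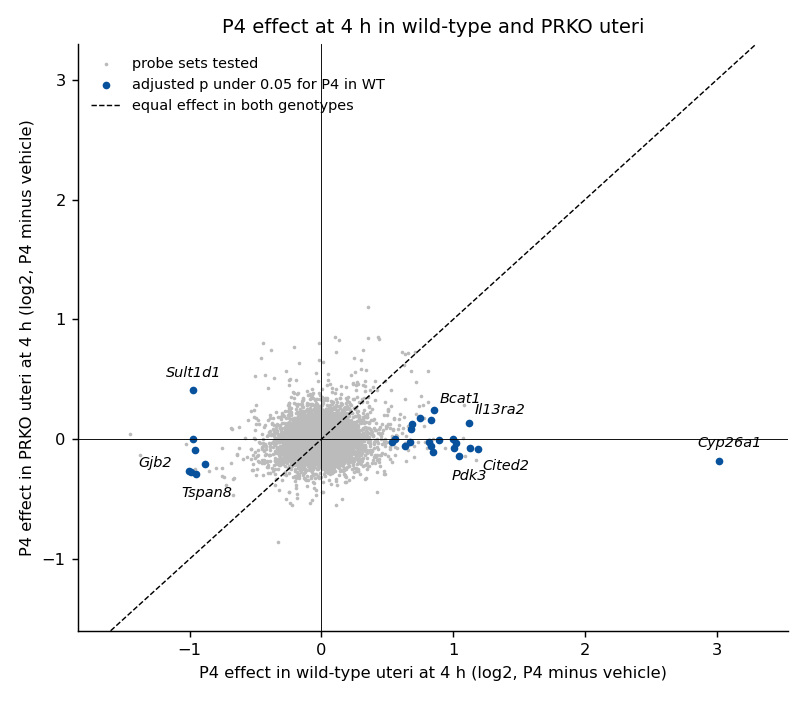
P4 effect at 4 h in WT uteri (horizontal axis, log2) against the effect in PRKO uteri (vertical axis, log2), each from 3 arrays against 3. Grey points are the 12422 probe sets, blue points the 28 that passed in WT, and the dashed line marks equal effects. Cyp26a1 lies alone at 3.02 in WT and -0.18 in PRKO, and the other blue points with positive WT effects spread about 0 in PRKO.

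Among probe sets that name a single gene, the next in order of p for a higher effect in WT did not pass for the difference, although 10 of the 11 rose in WT. Cited2, a transcriptional co-regulator that binds CBP and p300, read 683.0, 610.2 and 852.2 with vehicle and 1679, 1709 and 1592 after P4 in WT. In PRKO its signal was 807.6, 735.3 and 953.8 with vehicle and 658.0, 883.6 and 820.6 after P4. The 3 WT P4 arrays stood well above the other 9, whose ranges overlapped each other. Cited2 rose 2.28-fold in WT, its PRKO effect was -0.08 (95% interval -0.38 to 0.22), and the difference was 1.27 ± 0.20 (adjusted p = 0.0799).

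Ggct, an enzyme of glutathione breakdown, had WT signals of 145.2, 136.4 and 167.9 with vehicle and 351.1, 337.5 and 321.2 after P4. The PRKO arrays read 149.7, 125.4 and 106.1 with vehicle and 124.6, 109.3 and 135.6 after P4. Again the WT P4 arrays alone were high. Ggct rose 2.03-fold in WT and its difference was 1.05 ± 0.16 (adjusted p = 0.068). Its difference passed under 5 of the 22 alternatives that tested it, and that of Cited2 under 3 of 23.

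A pair of kinases came next. Bmp2k, an inducible kinase related to those that regulate endocytosis, read 109.1, 122.5 and 121.2 in WT with vehicle and 285.6, 327.5 and 203.4 after P4, against 114.0 to 138.7 on the 6 PRKO arrays. Pip5k1b, a lipid kinase that makes phosphatidylinositol bisphosphate, read 162.0, 175.8 and 176.1 with vehicle and 395.8, 447.3 and 294.4 after P4 in WT, against 171.3 to 210.0 in PRKO. Both rose 2.00-fold in WT, with replicate 3 the lowest of the P4 arrays for each. The WT P4 arrays of both lay above the 6 PRKO arrays, which ranking by the difference favours. Their differences were 1.07 ± 0.19 (Bmp2k, adjusted p = 0.17) and 1.00 ± 0.18 (Pip5k1b, adjusted p = 0.189). A second Pip5k1b probe set had a difference of 0.07 (95% interval -0.35 to 0.48), so the probe sets of this gene disagree.

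Among metabolic enzymes, Pdk3, a kinase that inhibits pyruvate dehydrogenase, read 440.7, 482.1 and 533.1 in WT with vehicle and 1169, 1219 and 772.3 after P4. In PRKO uteri it read 348.3, 410.9 and 489.1 with vehicle and 293.4, 462.6 and 373.3 after P4. It rose 2.06-fold in WT, and the difference was 1.19 ± 0.27 (adjusted p = 0.503). Acot7, a thioesterase that cleaves long-chain acyl-CoA, read 583.7, 410.5 and 786.1 with vehicle and 1509, 1296 and 1100 after P4 in WT, while the 6 PRKO arrays lay between 450.5 and 508.3. Acot7 rose 2.18-fold in WT, its vehicle arrays were widely scattered, and the difference was 1.20 ± 0.25 (adjusted p = 0.489). Adh5, which encodes alcohol dehydrogenase class III, rose 1.59-fold in WT. Its 2 probe sets gave differences of 0.69 and 0.63, and the second passed in WT with the replicate block (adjusted p = 0.0453, against 0.0591 without).

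Of the other genes on this side, Caprin2, an RNA-binding protein (difference 0.96 ± 0.18), Myd88, an adaptor of Toll-like and interleukin receptors (0.85 ± 0.19), and Pnkd (0.56 ± 0.13) rose in WT. A second probe set of Pnkd read -0.08. Adam3, a metalloprotease-like protein of sperm, is of another kind. Its WT effect was 0.42 and its PRKO effect -0.44, it did not pass in WT, and the difference of 0.87 ± 0.18 came from both genotypes. The other Adam3 probe set read -0.04. In 11 of these 12 probe sets, Cyp26a1 included, all 3 WT P4 arrays lay above the other 9 arrays, which was so for 151 of all 12422 (1.22%). On the lower side they lay below the other 9 for 6 of 12, against 0.950% of all. These probe sets were ranked by this very difference, so nothing is read from either count.

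**Figure D2:**
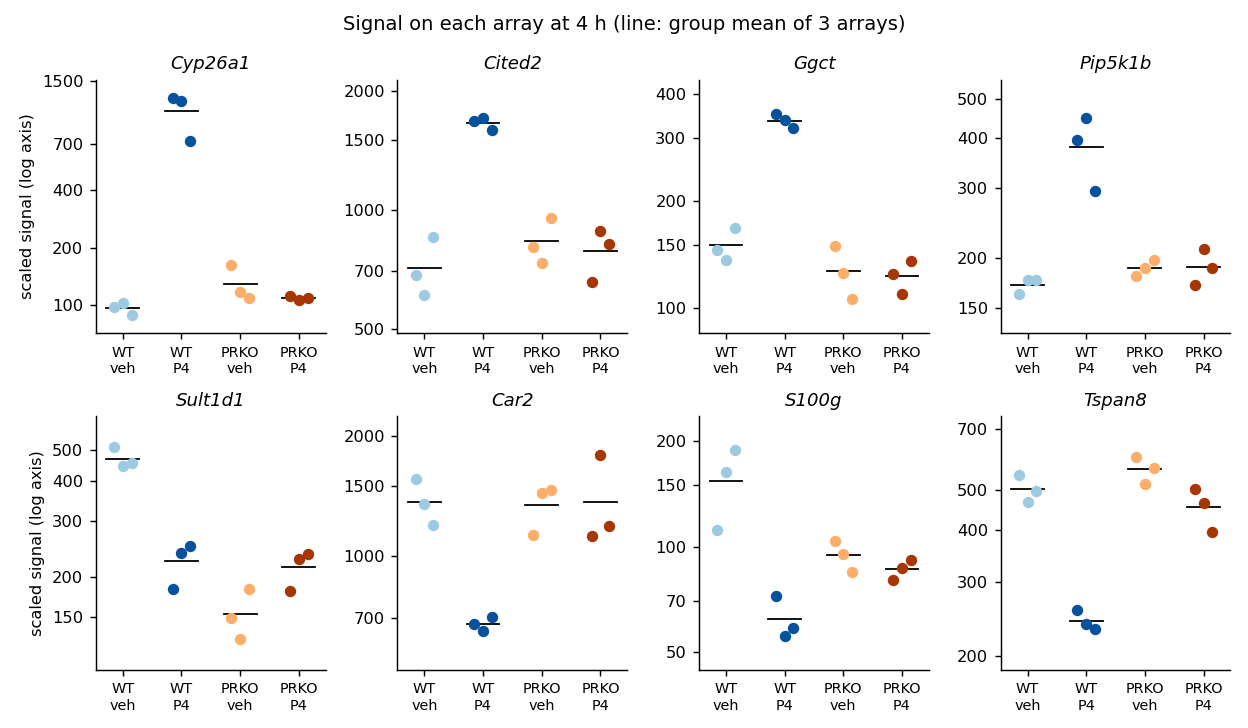
Scaled signal on each of the 12 arrays (vertical axes, log scale, 1 panel per gene) by genotype and treatment, with points for arrays and lines for means of 3. In the upper row the WT P4 arrays are the only high group, for Cyp26a1 at 726.4 to 1214. In the lower row Car2, S100g and Tspan8 are lowest on the WT P4 arrays, whereas Sult1d1 is high on the WT vehicle arrays alone.

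For lower effects in WT, Sult1d1 came closest to the threshold, and its pattern was unlike that of the genes that rose. Sult1d1, a cytosolic sulfotransferase, read 508.0, 443.8 and 455.0 in WT with vehicle and 183.7, 237.5 and 251.1 after P4. In PRKO it read 148.7, 128.6 and 184.3 with vehicle and 180.8, 227.7 and 235.9 after P4. Only the WT vehicle arrays were high, and the WT P4 arrays overlapped those of PRKO after P4. Sult1d1 fell 1.97-fold in WT, had an effect of 0.41 ± 0.14 in PRKO (unadjusted p = 0.0102, not past the adjusted threshold), and was lower in PRKO than in WT without hormone (log2 -1.44, adjusted p = 0.00158). The difference was -1.39 ± 0.19 (adjusted p = 0.052). It passed under 8 of 23 alternatives, among them the fit with the replicate number as a block (adjusted p = 0.0272).

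Without hormone, 5 probe sets passed for PRKO against WT (0.0403%), 3 higher in PRKO (0.0242%) and 2 lower (0.0161%). Besides Sult1d1 they were those of Hdc, the enzyme that makes histamine, which was also lower in PRKO (log2 -1.35), and of Mki67 (0.74) and Pclaf (0.71), markers of proliferating cells, and Cdh16 (1.32), a cadherin, which were higher. Apart from Sult1d1 these were chosen after their values were seen. The count was 23 with the 40 h arrays in the fit (19 higher and 4 lower) and 9 with the Gapdh 3'/5' ratio as a covariate. With a mean signal of at least 200 it was 2. It was 3, 1, 1, 3, 2 and 1 without WT vehicle replicate 1 or 3, WT P4 replicate 1, or PRKO vehicle replicates 1, 2 or 3.

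A further group held genes of calcium and acid handling that estrogen is known to regulate in uterine epithelium. S100g, the small calcium-binding protein a calbindin, has a pair of probe sets, and both fell in WT. On the first, WT arrays read 111.4, 163.0 and 187.8 with vehicle and 72.6, 55.8 and 58.8 after P4, and PRKO arrays read 103.8, 95.3 and 84.5 with vehicle and 80.7, 86.7 and 91.9 after P4. The WT P4 arrays were the lowest of all 12. The differences of the probe sets were -0.87 ± 0.19 (adjusted p = 0.503) and -0.72 ± 0.25. On the first probe set S100g was at log2 -0.54 in PRKO against WT with vehicle, which did not pass.

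Car2, carbonic anhydrase II, read 1557, 1352 and 1196 in WT with vehicle and 676.4, 651.6 and 706.8 after P4. The PRKO arrays read 1127, 1438 and 1466 with vehicle and 1126, 1786 and 1193 after P4. The WT P4 arrays were the only low group. Car2 fell 1.96-fold in WT, its PRKO effect was 0.01 (95% interval -0.35 to 0.36), and the difference was -0.98 ± 0.23 (adjusted p = 0.535). Calb1, the larger calbindin, had the lowest value of the 24 ranked probe sets, -1.49 ± 0.39, but not the firmest. It read 1627, 1375 and 1878 with vehicle and 588.7, 639.2 and 488.6 after P4 in WT, but 1314, 650.7 and 631.9 with vehicle and 1234, 619.9 and 772.0 after P4 in PRKO. A single PRKO array of each treatment, replicate 1, was high, and Calb1 did not pass in WT (adjusted p = 0.0591) or for the difference (0.77). With the replicate block it passed in WT (0.0173) and not for the difference (0.351).

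Tspan8, a tetraspanin of epithelial cells, was the single gene that fell over both genotypes together. It read 540.7, 467.5 and 495.6 in WT with vehicle and 258.5, 238.3 and 232.0 after P4, and in PRKO 598.6, 517.2 and 562.9 with vehicle and 500.7, 464.5 and 396.8 after P4. In each genotype the P4 arrays lay below the vehicle arrays, the shift being larger in WT. The mean of the WT and PRKO effects was -0.62 ± 0.07 (limma adjusted p = 0.00751), from -0.95 ± 0.10 in WT and -0.29 ± 0.10 in PRKO (unadjusted p = 0.015). The PRKO effect did not pass. A rule that named Tspan8 required effects of the same sign, each at an unadjusted p under 0.05, so that p is no separate support. The difference of -0.67 ± 0.14 did not pass (adjusted p = 0.503), and without both arrays of high Gapdh ratio a single probe set, a higher one, passed for the mean effect. The mean effect passed for 2 probe sets (0.0161%), Tspan8 and Cyp26a1. Other settings gave up to 17 for the mean effect. Leaving out WT vehicle replicate 3, WT P4 replicate 3 or PRKO vehicle replicate 1 gave 8, 6 and 4.

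Efnb2, a ligand of Eph receptors, fell 1.84-fold in WT with a PRKO effect of -0.21 and a difference of -0.67 ± 0.20. Hmga2, a chromatin protein, had effects of -0.96 in WT and 0.00 in PRKO, and Emb, the adhesion protein embigin, a difference of -0.59. Neither passed in WT without a block, and both did with the replicate block (adjusted p = 0.0365 for Hmga2 and 0.0211 for Emb). F3, tissue factor, had a difference of -0.70, Slc39a4, a zinc importer, -0.67, Prxl2a -0.75 and Lep, leptin, -0.49. Other probe sets of 4 of these genes read 0.06 for Emb, 0.18 for Slc39a4, 0.27 for Prxl2a and -0.20 for Lep. Slc39a4, Prxl2a, F3 and Lep did not pass in WT and had positive PRKO effects, of 0.18, 0.24, 0.18 and 0.23. The adjusted p of the 12 probe sets lowest in p on this side ran from 0.052 to 1.

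**Figure D3:**
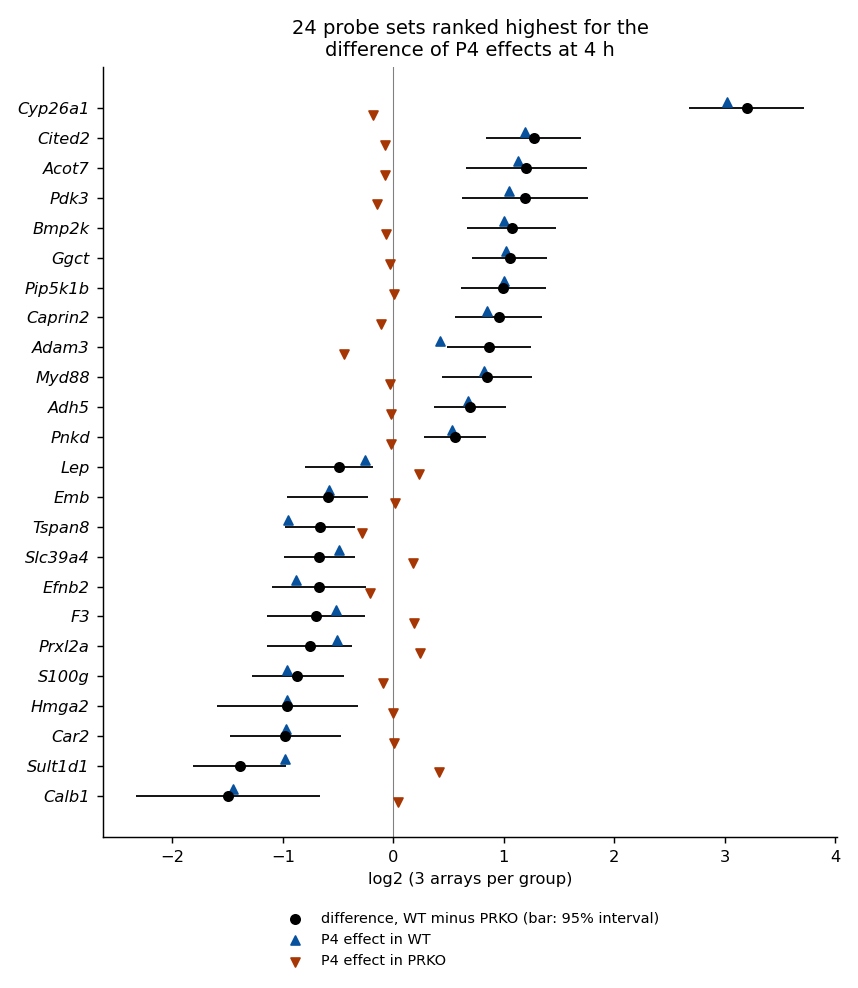
The 12 probe sets of a single named gene lowest in p in each direction for the difference of P4 effects at 4 h (horizontal axis, log2), with black points for the difference and bars for its 95% interval, and triangles for the effects in WT and PRKO, 3 arrays per group. Cyp26a1 alone passed; on the upper side PRKO effects lie between -0.44 and 0.00, on the lower side between -0.29 and 0.41.

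Of the genes that rose in WT, those with the smallest differences from PRKO were also examined. Bcat1, which starts the breakdown of branched-chain amino acids, rose with a WT effect of 0.86, and its PRKO effect was 0.24 ± 0.14, the highest among the genes that rose. Its difference was 0.61 ± 0.20 (95% interval 0.19 to 1.04). The others were Atp6v1b2, a subunit of the proton pump of vesicles (difference 0.55), Pdzk1ip1 (0.56), Pnkd (0.56), Acot1, an acyl-CoA thioesterase (0.57), and Zdhhc3, a palmitoyltransferase (0.60). Their PRKO effects were small, from -0.02 for Pnkd to 0.17 for Acot1. No probe set at all passed in PRKO, so no gene could be called as rising in both genotypes, and nothing is read from that.

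Gene lists were read by counts and medians, on the brightest probe set of each gene. Over all 8251 genes the median effect was 0.00 in WT and 0.00 in PRKO, with 18 genes higher and 6 lower past the threshold in WT. Of 32 listed progesterone targets 26 were measured, with a median effect of 0.16 in WT and 0.06 in PRKO. In WT 3 rose (Cyp26a1, Cited2 and Il13ra2) and none fell, in PRKO none passed, and for the difference Cyp26a1 alone passed. All 3 WT P4 arrays lay above the vehicle arrays for 8 of the 26 and below for 0, against 3.63% and 3.03% of all probe sets. In PRKO the counts were 3 above and 0 below, against 1.66% and 2.67%. With the replicate block Il13ra2 did not pass in WT, and Gata2, a transcription factor, did (adjusted p = 0.013, against 0.0842 without). The list was chosen with results of these data known, and is not independent evidence of its direction.

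Il13ra2, a decoy receptor for interleukin 13, rose 2.18-fold in WT from a dim signal (adjusted p = 0.0474, and 0.0526 with the replicate block), with a PRKO effect of 0.14 and a difference of 0.99 ± 0.29. Fst, follistatin, which binds and blocks activins, read 99.8, 102.5 and 85.2 with vehicle and 289.9, 299.4 and 104.9 after P4 in WT, and 93.1 to 110.8 on the PRKO arrays. WT P4 replicate 3 stayed near vehicle level, and the difference of 1.01 ± 0.35 did not pass with all arrays but did without that array. Ihh, the epithelial hedgehog ligand, read 792.1, 849.5 and 1040 with vehicle and 1275, 1399 and 1199 after P4 in WT, and 739.6 to 912.8 in PRKO. The WT P4 arrays were all above the other 9, yet the difference was 0.60 ± 0.16 (adjusted p = 0.887). The hedgehog receptor Ptch1 and Nr2f2, both known to act downstream of Ihh, had differences of -0.42 ± 0.37 and -0.36 ± 0.33. Errors of this size do not settle the sign of either, so no contrast with Ihh is read from them. Of the 12 hedgehog genes 0 passed in either genotype.

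Genes that both corticoids and progestins induce in many tissues were measured for 24 of 25 listed, with medians of 0.14 in WT and 0.04 in PRKO. Errfi1, an inhibitor of the epidermal growth factor receptor, rose 1.78-fold in WT and was the single member to pass without a block. Its PRKO effect was 0.16, and the differences of its probe sets were 0.67 ± 0.21 and 0.80. Sgk1, a kinase that regulates sodium channels, read 902.6, 651.3 and 1145 with vehicle and 1934, 1886 and 1882 after P4 in WT, and 599.5 to 1101 in PRKO. The WT P4 arrays were tightly grouped above all others, and the WT effect of 1.09 narrowly missed the threshold (adjusted p = 0.0599, difference 1.23 ± 0.29). With the replicate block Sgk1 passed in WT (0.0281) and not for the difference (0.351). Fkbp5, a co-chaperone of steroid receptors, had similar values in both genotypes, 0.41 in WT and 0.33 in PRKO. Neither passed.

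Retinoid genes other than Cyp26a1 showed no common shift. The list had 19 measured members with medians of 0.04 in WT and 0.02 in PRKO, and Cyp26a1 was its single member to pass in WT or for the difference. Aldh1a1, which makes retinoic acid, had a WT effect of 0.67 (adjusted p = 0.0717) and a difference of 0.57 ± 0.18. Aldh1a2, with the same activity, read 0.26 in WT and 0.41 in PRKO. No retinoic acid receptor or retinoid X receptor gene passed. Steroid receptors and their chaperones and coregulators (15 measured) had medians of -0.05 and 0.04 and none passed, and the same held for 22 immediate early genes and 25 cell cycle genes.

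Genes that estrogen regulates in the uterus were the list with most members that fell in WT. Of 24 measured, 4 fell in WT (Sult1d1, Car2, Gjb2 and S100g), none rose, and none passed in PRKO or for the difference. The WT P4 arrays lay below the vehicle arrays for 8 of the 24 and above for 0, against 3.03% and 3.63% of all probe sets. In PRKO the counts were 0 below and 1 above, against 2.67% and 1.66%. This list too was chosen with results of these data known, and is not independent evidence of its direction. With the replicate block Calb1 also passed in WT, and Sult1d1 for the difference. The median effect was -0.07 in WT and 0.04 in PRKO, while epithelial markers had a lower WT median, -0.15. Gjb2, a gap junction protein of epithelia, fell 2.01-fold in WT, with a PRKO effect of -0.27 and a difference of -0.74 ± 0.24. Ltf, lactoferrin, read -0.67 in WT and -0.47 in PRKO and did not pass.

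Tissue kallikreins, secreted proteases of a tandem gene cluster, had the highest list median in WT, 0.40, against 0.03 in PRKO, over 9 measured members. None passed. For 4 of 9 the WT P4 arrays lay above vehicle, against 3.63% of all probe sets. Klk1 read 137.5, 159.3 and 224.9 with vehicle and 271.1, 360.3 and 269.6 after P4 in WT and 146.2 to 206.9 in PRKO. Its difference was 0.76 ± 0.24. A second, dimmer Klk1 probe set, outside the list count, passed in WT with the replicate block (limma adjusted p = 0.0266, against 0.0717 without). These paralogs are close in sequence, so their probe sets may detect each other's transcripts and are not independent. In glucose and pyruvate metabolism 1 of 17 measured genes rose (Pdk3), beside 18 of all 8251 genes. Pfkfb3, a regulator of glycolysis, and Slc2a3, a glucose transporter, had WT effects of 0.78 and 0.53, neither past the threshold. With the replicate block Pfkfb3 passed (adjusted p = 0.0393) and Slc2a3 did not (0.0738). For 3 of the 17 genes, these and Pdk3, all 3 WT P4 arrays lay above the other 9, and for 0 below. The shares over all probe sets were 1.22% and 0.950%. Differences were 0.61 ± 0.22 for Pfkfb3 and 0.51 ± 0.16 for Slc2a3, and neither passed. In PRKO too the P4 arrays of Pfkfb3 (256.4, 249.0 and 309.1) lay above its vehicle arrays (233.0, 239.1 and 235.0).

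**Figure D4:**
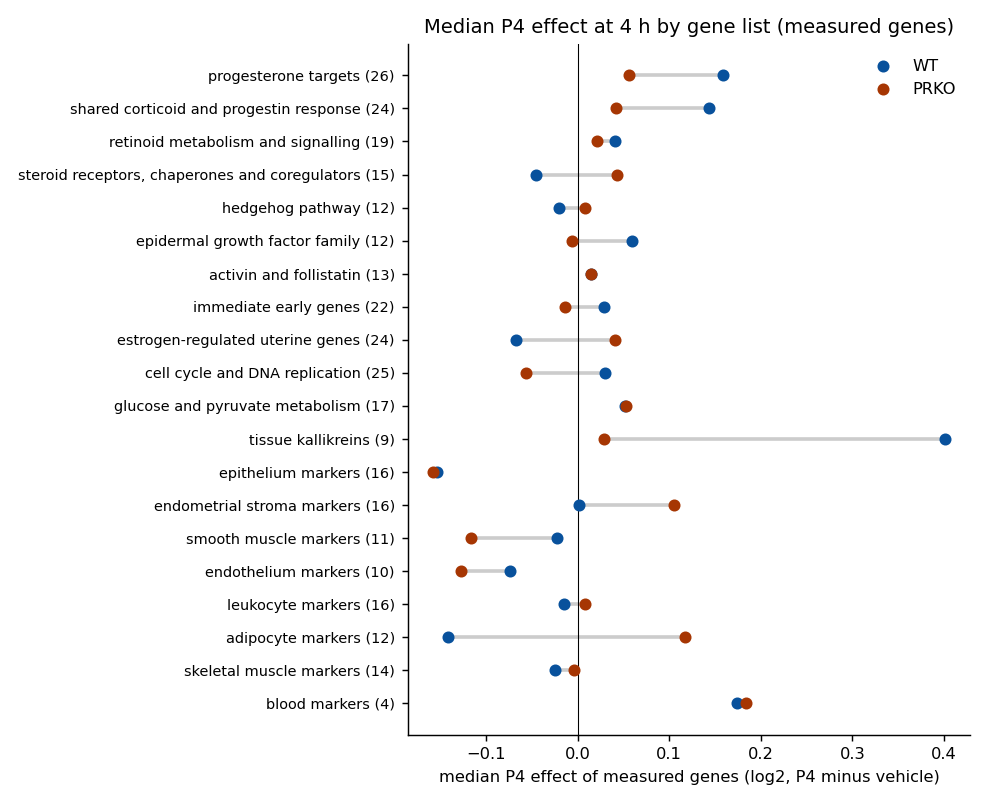
Median P4 effect at 4 h (horizontal axis, log2) of the measured genes of each list in WT (blue) and PRKO (red), with the number measured in parentheses and 3 arrays per group. The kallikreins stand highest in WT at 0.40 with 0.03 in PRKO, epithelial markers are near -0.15 in both, and adipocyte markers lie at -0.14 and 0.12.

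In bulk tissue, fewer cells of a type and less RNA per cell cannot be told apart, and values of the marker lists are therefore given beside these genes. Epithelial markers had medians of -0.15 in WT and -0.16 in PRKO. The WT P4 arrays lay below vehicle for 7 of 16 of them and above for 1 (Cldn3), against 3.03% and 3.63% of all probe sets. The PRKO P4 arrays lay below for 2 of 16 and above for 0, against 2.67% and 1.66%. Tspan8 was the single member to pass, and their summed signal was 12090 to 13700 in WT with vehicle and 10640 to 12760 after P4. In PRKO the sums were 11850 to 14470 and 10840 to 14220. The part of epithelial content in the values of S100g, Calb1, Car2, Gjb2 and Tspan8 was not tested. Adipocyte markers had a median of -0.14 in WT and 0.12 in PRKO, and 2 of 12 had a difference above 0, beside 4173 of all 8251 genes. None of the 12 passed. The WT P4 arrays lay below vehicle for 0 of them and above for 1, against 3.03% and 3.63% of all probe sets. Their sum was 18410 to 21620 with vehicle and 15860 to 20560 after P4 in WT, and 15510 to 22400 and 19010 to 21400 in PRKO. Lep is a fat cell gene, and the part of fat in its value was not tested. Medians of stromal, muscle, endothelial and leukocyte markers lay between -0.13 and 0.10, and those of blood at 0.17 and 0.18.

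The same difference of effects was available at 40 h, on 12 other arrays taken 4 h after the last of 4 injections given 12 h apart. There 18 probe sets passed, 8 higher (0.0644%) and 10 lower (0.0805%), and 58.0% of all values were above 0. Cyp26a1 was not high at this time: its scaled signal averaged 164.9 ± 40.5 (SD, n = 3) with vehicle and 126.4 ± 9.0 after P4 in WT, and the difference was -0.10 (95% interval -0.49 to 0.28). This interval lies below the whole interval at 4 h. The difference between the times was not tested in a joint model. Cited2 (-0.13), Bmp2k (-0.05), Pip5k1b (-0.06) and Pdk3 (-0.12) were also near 0 at 40 h, and Ggct was at 0.11.

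Acot7 was the single one of the 12 probe sets on the higher side at 4 h to pass at 40 h. There it averaged 609.2 ± 170 with vehicle and 1988 ± 174 after P4 in WT, against 460.9 ± 16.5 and 481.6 ± 21.3 in PRKO (SD, n = 3), and its difference of 1.63 ± 0.20 passed (limma adjusted p = 0.00495). Of these 12, 7 had a difference above 0 at 40 h, beside 58.0% of all probe sets. Myd88 read 0.74 at 40 h and did not pass. The median 40 h difference of the 21 probe sets that rose in WT at 4 h was -0.03.

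On the lower side, 10 of 12 probe sets were below 0 again at 40 h, beside 42.0% of all. Car2 averaged 1540 ± 260 with vehicle and 784.8 ± 40.3 after P4 in WT at 40 h (SD, n = 3), and its difference of -0.92 ± 0.14 passed (limma adjusted p = 0.0241). Tspan8 (-1.18, adjusted p = 0.109), Efnb2 (-0.76), F3 (-0.92) and Prxl2a (-0.59) were lower without passing. S100g had the opposite sign. On the same first probe set it averaged 148.0 ± 34.6 with vehicle and 449.6 ± 23.7 after P4 in WT at 40 h, against 74.2 ± 12.3 and 71.4 ± 9.5 in PRKO (SD, n = 3). Its 40 h difference was 1.47 (adjusted p = 0.00495), and the second probe set gave 1.82 (adjusted p = 0.00205), where at 4 h they read -0.87 and -0.72. The WT effect on the first probe set was -0.96 at 4 h and 1.44 at 40 h, and the PRKO effect was -0.09 and -0.04.

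**Figure D5:**
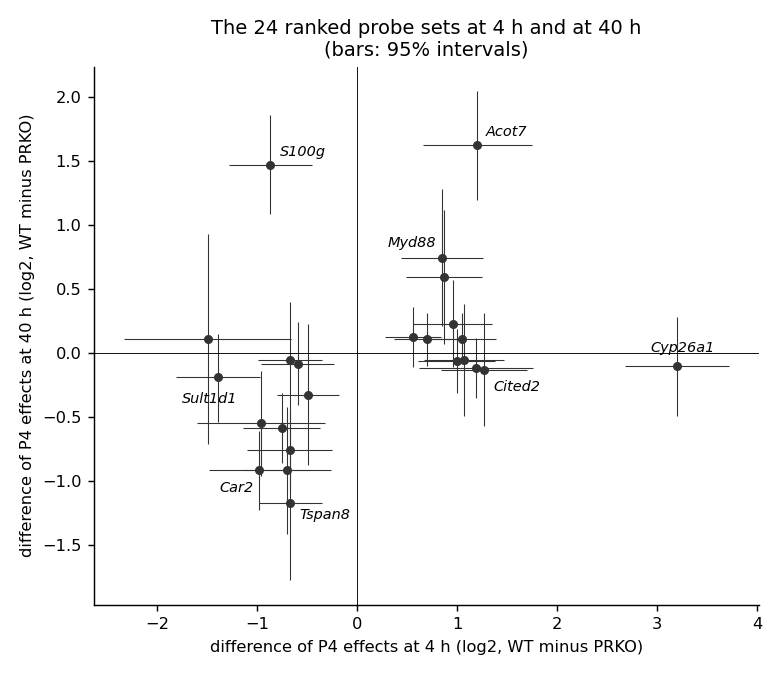
Difference of P4 effects at 4 h (horizontal axis, log2) and at 40 h (vertical axis, log2) for the 24 ranked probe sets, each from its own 12 arrays, with bars for 95% intervals. Acot7 is high at both times and Car2 low at both, S100g changes sign from -0.87 to 1.47, and Cyp26a1 is at 3.20 and then at -0.10.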

How the data were processed

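Uterine RNA was hybridized to Affymetrix mouse arrays, 24 in all, of which the 12 at 4 h carry the comparison. The deposited table gives linear signal intensity for each probe set and array, made with MAS5, the Affymetrix summarization software, per the submitters' processing notes. No source used here gives its version or settings, or says how arrays were normalized. Of 12488 probe sets, 66 controls were left out and the other 12422 were all tested, dim ones included. Scaling brought the 2%-trimmed mean of every array to 500, with factors from 0.964 to 1.03. Values entered the fit as log2 of scaled signal plus 32, which compresses fold changes of dim genes. Over the 12 arrays 19 values were exactly 0.

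Means of the 4 groups were fitted with limma 3.58.1 in R 4.3.3, with two-sided moderated tests, an intensity trend, 8 residual and 4.66 prior degrees of freedom and Benjamini-Hochberg adjustment over all probe sets. The 40 h arrays were fitted on their own. Platform annotation named a single gene for 10833 probe sets, several for 396 and none for 1193. Named genes are those that passed for the difference, the next by p up to 12 in each direction, those that passed in WT with the 6 smallest differences, list members that passed, and Pgr. Tspan8 was also named as passing for the mean effect of both genotypes. That rule kept only genes with WT and PRKO effects of the same sign, each at an unadjusted p under 0.05. The members and lists were chosen with earlier results of these data known. The fit was also run on simulated data with independent errors on each array. That setting leaves out the shared deviations of same-numbered arrays described below, and nothing is read from it here.

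Same-numbered arrays of the WT groups deviated together (correlations of 0.114, 0.516 and 0.35). The main fit has no term for such pairing, and its errors and p-values ignore it. A fit with the replicate number as a block was run as an alternative. Over all 18 same-numbered pairs of the 4 groups correlations ran from -0.23 to 0.627, with 12 above 0.1. Pairs of different number ran from -0.659 to 0.549, and the labels do not say that the numbers pair arrays.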

Additional observations from a re-analysis of the deposited data

Results flagged for a closer look

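The P4 effect on Cyp26a1 at 4 h differed between the genotypes by log2 3.20 ± 0.24 in the test of the difference itself, which is what marked it. It was higher on all 3 P4 arrays than on all 3 vehicle arrays in WT and overlapped between treatments in PRKO.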

How the results depend on the processing

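Cyp26a1 passed under all 23 alternatives, and no probe set passed in PRKO under any of them. For the named probe sets no alternative reversed or ended a call of the difference, 27 combinations of probe set and alternative newly passed, and 749 kept their side of the threshold. The count for the difference was 12 with all 24 arrays, 3 with the largest offset tried, 2 with a mean signal of at least 200, 6 with array weights and 2 with the replicate block. It was 1 to 8 over the runs leaving out 1 array. The WT count was 88 with all 24 arrays, 1 without both arrays of high Gapdh ratio and 4 to 40 over the runs leaving out 1 array. The count for the mean effect was 17 with all 24 arrays, 8 with array weights, 1 without both arrays and 2 to 8 over those runs. The vehicle count was 23 with all 24 arrays, 2 with a mean signal of at least 200, 9 with the Gapdh ratio as a covariate and 1 to 6 over those runs. The replicate block gave 42 for WT, 7 for vehicle uteri and 2 for the mean effect. For the difference it changed the call of Sult1d1 alone, in WT it gained 15 calls and lost 1, and for vehicle uteri it gained 2. The cause of these shifts was not tested, apart from fewer arrays or probe sets where these were left out.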
